A study of Mus musculus with 40 samples.

Results

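Oxtr, the gene of the oxytocin receptor, was followed through RNA libraries of sWAT, the white fat that lies under the skin of the mouse. It is 1 gene of 34843 symbols in the count table and 1 of the 15807 genes with enough counts to be tested. It was chosen from these same data because it was higher on high-fat diet and lower with each treatment, so its values in those 4 comparisons are a description and carry no test. There were 5 groups of 8 libraries. ND mice received a normal diet and HFD mice a high-fat diet. A further pair of groups stayed on HFD and received semaglutide, a long-acting agonist of the glucagon-like peptide 1 (GLP-1) receptor, or tirzepatide, a long-acting peptide agonist of both the GLP-1 receptor and that of the other incretin, GIP. Diet-switch mice were moved from HFD to ND. The labels name no genotype, strain, sex, age, dose or duration. The series title places a dietary intervention after incretin analog treatment, so the diet-switch mice may have had a drug before the switch, and the labels do not settle this. Nothing says that the libraries of a group come from separate animals, so a p-value here reflects only the spread among these samples, which may be technical.

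Oxytocin is a short amidated peptide made by neurons of the hypothalamus and released into the blood from the posterior pituitary. Its receptor couples mainly to Gq-class G proteins, which switch on phospholipase C beta. This enzyme releases inositol trisphosphate (IP3) and diacylglycerol, raising cell calcium and activating protein kinase C. The receptor is best known for contraction of the uterus and milk ejection, and in fat tissue it is found on adipocytes, where oxytocin has been reported to stimulate lipolysis.

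On mm10 (GENCODE M21), Oxtr (ENSMUSG00000049112.9) lies on the minus strand of chromosome 6 from 112473683 to 112489943. Its longer protein-coding transcript, Oxtr-201, has an exon of 1065 bp holding the start codon and a last exon of 3639 bp, of which 3394 bp are 3′ UTR, the end that a 3′ library reads. Stretches upstream of the start sites of Oxtr and of Lep, the leptin gene, whose RNA followed Oxtr from library to library, are given here because the genes moved together. They come from RefSeq on GRCm38.p6, written 5′ to 3′ on each gene's own strand, at chr6:112489944-112490075 (132 bases, minus strand) for Oxtr and chr6:29059971-29060219 (249 bases, plus strand) for Lep. The Oxtr stretch ends 119 bases before the RefSeq start, since the bases nearer to it lie inside the GENCODE transcript, and the Lep stretch ends 2 bases before it. The bases next to the RefSeq start of Oxtr were therefore not searched, which is where a TATA box for that start would lie. The stretch ends directly before the GENCODE start of Oxtr-201, so the bases before that start were searched. Capitals mark matches to the motifs searched.
Oxtr: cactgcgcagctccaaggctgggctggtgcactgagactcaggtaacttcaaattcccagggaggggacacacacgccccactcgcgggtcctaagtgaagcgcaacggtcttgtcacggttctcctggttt
Lep: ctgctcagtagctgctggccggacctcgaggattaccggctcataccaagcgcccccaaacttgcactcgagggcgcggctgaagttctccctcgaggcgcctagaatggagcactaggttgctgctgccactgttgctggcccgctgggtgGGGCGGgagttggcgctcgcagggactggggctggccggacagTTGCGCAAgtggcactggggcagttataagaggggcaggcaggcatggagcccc

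The search covered both strands for the estrogen receptor core motif TGACC, the E-box CACGTG, the AP-1 site TGANTCA, the palindrome TTGCGCAA bound by C/EBP proteins, the TATA box TATAAA and the GC box GGGCGG, with no overlap among the matches. The Oxtr stretch held none of these letters. Among promoter windows cut to their first 132 bases, as for Oxtr, 20.2% held TGACC, 2.49% CACGTG, 3.46% TGANTCA, 0.0814% TTGCGCAA, 6.81% TATAAA and 14.0% GGGCGG. The Lep stretch held the palindrome 55 bases and the GC box 98 bases before the RefSeq start. In full windows of 250 bases over 27025 promoters, 0.17% held the palindrome and 32.9% the GC box. The other genes most like Oxtr, named below, were searched too, except Lbp, Slc48a1 and Mest, which had no single entry. Of the genes searched only Lep held the palindrome, while Fads3, Duoxa1 and Sfrp5 also held the GC box. A match describes these letters only.

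Oxtr RNA was scarce in lean fat and abundant on HFD. Levels are CPM, a gene's counts relative to the library's total after scaling with edgeR's TMM factors. In ND the libraries ran from 3.15 to 40.8 CPM with a median of 13.1 and a mean of 15.0 ± 11.6 (SD, n = 8), from 11 to 159 counts per library. In HFD they ran from 53.2 to 213 CPM with a median of 144 and a mean of 143 ± 56.5, from 195 to 1003 counts. Every HFD library lay above every ND library. The nearest pair was HFD library 8 at 53.2 CPM, with an exact Poisson 95% interval of 46.0 to 61.2 that covers counting error only, and ND library 2 at 40.8 CPM. The fitted difference of HFD against ND was 3.24 ± 0.46 (SE) on the log2 scale, 9.47-fold, and only 10 of the tested genes had a larger fitted rise.

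With semaglutide the group split widely. The median was 20.2 CPM and the mean 29.5 ± 27.1 (SD, n = 8), with a lowest library of 4.49 and a highest of 74.4. Libraries 3 and 5, at 74.4 and 70.3 CPM, lay inside the HFD range, above HFD library 8. The other 6, from 4.49 to 22.3 CPM, lay below every HFD library. The highest semaglutide library was 16.6 times the lowest, against 4.01 times within HFD and 13.0 times within ND. The fitted difference of semaglutide against HFD was -2.27 ± 0.44 (SE) on the log2 scale, 4.82-fold lower.

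With tirzepatide and after the diet switch all 16 libraries were low. Tirzepatide libraries ran from 4.84 to 17.2 CPM with a median of 7.04 and a mean of 9.08 ± 4.57 (SD, n = 8). Diet-switch libraries ran from 3.44 to 13.4 CPM with a median of 8.01 and a mean of 7.97 ± 3.66. Neither group overlapped with HFD, and each spanned less than a 4-fold range, 3.55 and 3.89 times from lowest to highest. The fitted differences from HFD were -4.03 ± 0.49 (SE) for tirzepatide, 16.3-fold lower, and -4.15 ± 0.49 after the switch, 17.8-fold lower, both on the log2 scale. Ranked by the size of the fall, Oxtr stood 17th of the 15807 tested genes with semaglutide, 11th with tirzepatide and 7th after the switch. These 3 comparisons share the HFD libraries.

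**Figure D1:**
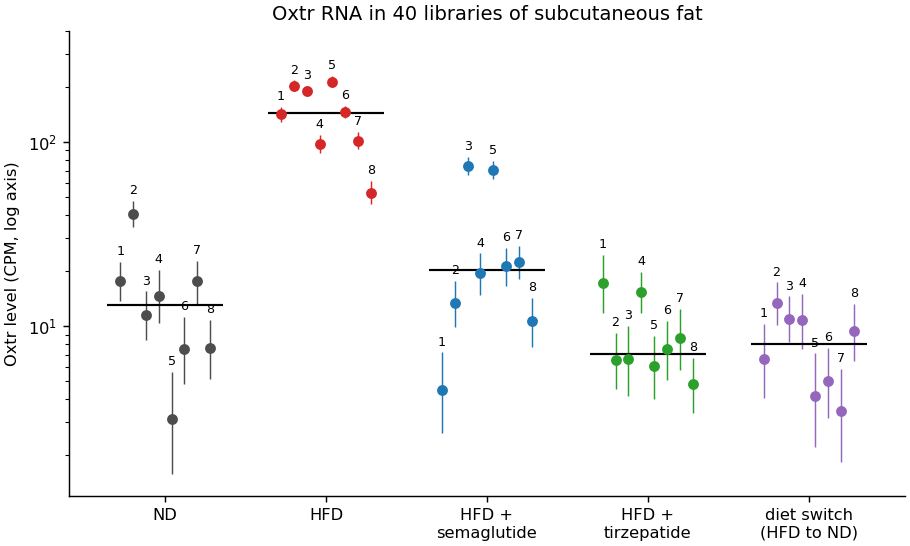
Oxtr level in CPM on a log axis for each of the 40 libraries by group, with the library's number above it. Vertical bars are exact Poisson 95% intervals (counting error only) and horizontal lines are group medians. HFD libraries sit between 53.2 and 213 CPM, semaglutide libraries 3 and 5 reach into that range, and the tirzepatide and diet-switch libraries all lie at or below 17.2 CPM.

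By median the order was HFD at 144 CPM, semaglutide at 20.2, ND at 13.1, diet switch at 8.01 and tirzepatide at 7.04. The 6 comparisons that do not set a group against HFD, or HFD against ND, were tested with edgeR's quasi-likelihood test, adjusted over all genes, and with an exact two-sided permutation test of mean log2 CPM over the 16 libraries, adjusted over these 6. Their fitted values follow by addition or subtraction from those of the comparisons that chose the gene. Their p-values are therefore not independent of that choice. No pair of neighbours below HFD in that order passed the adjusted threshold. Semaglutide lay 0.97 ± 0.45 (SE) above ND on the log2 scale, with a 95% interval from 0.07 to 1.88 that lies above 0. The edgeR p was 0.0355 before and 0.289 after adjustment over all genes, and the exact permutation p was 0.218. Tirzepatide lay at -0.79 ± 0.47 against ND, with an interval from -1.75 to 0.17 (edgeR adjusted p = 0.305). The diet switch lay at -0.91 ± 0.48 against ND, with an interval from -1.87 to 0.06 (edgeR adjusted p = 0.195). These intervals still hold differences of over 1 log2 unit, so none of the 3 is shown to equal ND. The diet switch and tirzepatide differed by -0.12 ± 0.49, with an interval from -1.12 to 0.88 (edgeR adjusted p = 0.947).

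Oxtr was lower with tirzepatide, and lower after the diet switch, than with semaglutide by edgeR's test, but not by the permutation test. Both differences follow from the changes against HFD that chose the gene, so neither test is independent of that choice. Tirzepatide stood at -1.76 ± 0.47 (SE) against semaglutide on the log2 scale, with an interval from -2.70 to -0.82 and an edgeR adjusted p of 0.0152. The diet switch stood at -1.88 ± 0.47 against semaglutide, with an interval from -2.83 to -0.93 and an edgeR adjusted p of 0.00732. In each, 8 of 8 libraries lay below the semaglutide median of 20.2 CPM, and how many other genes did so was not counted. By edgeR's test 5.92% and 6.29% of all tested genes were called lower in these comparisons. In the same 2 comparisons the exact permutation test gave p = 0.0253 and p = 0.0138, and an adjusted p of 0.076 for both. The smallest p it can give is 0.000155. Both edgeR calls held with each of the 40 libraries left out in turn (adjusted p 0.00761 to 0.045 and 0.00364 to 0.0229). They were lost without the 10 libraries rich in skeletal muscle RNA described below, at -2.22 for tirzepatide (edgeR adjusted p = 0.0663) and -1.83 for the switch (edgeR adjusted p = 0.0507).

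**Figure D2:**
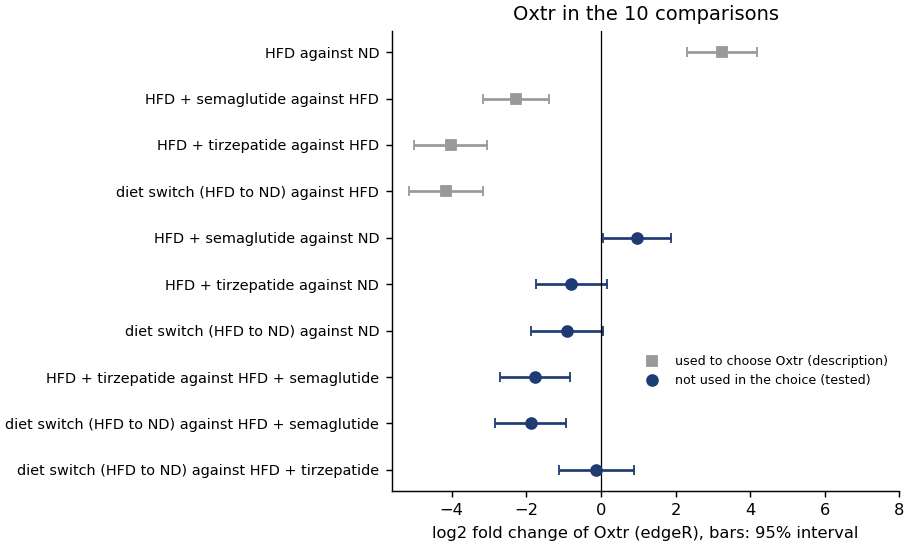
Fitted log2 fold change of Oxtr in the 10 comparisons, with 95% intervals from edgeR. Grey squares are the 4 comparisons used to choose the gene and blue circles the 6 tested ones. The intervals of tirzepatide and of the diet switch against semaglutide, -2.70 to -0.82 and -2.83 to -0.93, lie below 0.

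Library totals ran from 2115471 to 7445548 counts, with 19900 to 23774 genes detected. Adipocyte markers were near level across groups, from 10.44 ± 0.37 mean log2 CPM in ND (SD, n = 8) to 10.76 ± 0.17 in HFD. Skeletal muscle markers exceeded 5 mean log2 CPM in 10 libraries: tirzepatide 1, 4, 5 and 7, diet switch 1, 3 and 6, ND 6 and 8, and HFD 4. B cell markers exceeded 5 in ND 5 and semaglutide 1, 3 and 8. Without the B cell-rich libraries HFD stood at 3.09 against ND, semaglutide at -2.30 against HFD, and the edgeR calls against semaglutide were kept at -1.75 for tirzepatide (adjusted p = 0.0132) and -1.87 for the switch (adjusted p = 0.00621). In bulk tissue, fewer cells of a type and less RNA per cell cannot be told apart.

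Mammary epithelium also carries the receptor, and the mouse subcutaneous depots lie beside mammary glands, so its markers were read in the same libraries. Of 11 mammary markers, 9 were in the table. Their summed level was 1.91 to 6.12 CPM in HFD (median 2.70), where Oxtr alone stood at 53.2 to 213 CPM. In ND the summed level was 2.83 to 10.4 CPM (median 7.83), and the highest in any library was 20.5 CPM, with tirzepatide. The basal keratin Krt14 had no count in ND, and Lalba, which encodes the milk protein alpha-lactalbumin, had none with semaglutide. The part of mammary tissue in the level of Oxtr was not tested.

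The peptides that bind the receptor were almost absent from the tissue. Oxt, which encodes oxytocin, had 19 counts over all 40 libraries, 3 in ND, 5 in HFD, 2 under semaglutide, 6 under tirzepatide and 3 after the switch. Avp, the gene of the related peptide vasopressin, had 3 counts in all. Of the sister receptors for vasopressin, Avpr2 had 4 counts in all. Avpr1a, another Gq-coupled receptor, had 269, of which 97 were in ND and 35 in HFD. Its difference of HFD against ND was -1.45 ± 0.65 (SE) on the log2 scale and was not past the threshold (edgeR adjusted p = 0.227). No other receptor of the family was tested. Oxtr alone held 6465 counts.

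Pam, the enzyme that amidates peptides including oxytocin, rose on HFD and fell with each treatment. Its libraries ran from 47.7 to 108 CPM in ND (median 86.3) and from 110 to 166 in HFD (median 147). The medians were 85.3 CPM with semaglutide, 69.2 under tirzepatide and 67.9 after the switch. HFD libraries all lay above ND libraries, and tirzepatide and diet-switch libraries, which reached at most 84.8 and 93.0 CPM, all lay below HFD. The log2 changes from edgeR were 0.76 ± 0.16 on HFD (SE, adjusted p = 0.00205), -0.70 ± 0.16 under semaglutide (adjusted p = 0.00638), -1.03 ± 0.16 under tirzepatide (adjusted p = 1.17e-05) and -0.99 ± 0.16 after the switch (adjusted p = 2.38e-05). Lnpep, the aminopeptidase also called oxytocinase that cleaves oxytocin, was higher with each treatment than on HFD. Its medians were 91.3 CPM in ND, 73.1 in HFD, 112 under semaglutide, 96.6 under tirzepatide and 110 after the switch. The rises over HFD were 0.55 ± 0.14 (SE, edgeR adjusted p = 0.0112), 0.39 ± 0.14 (adjusted p = 0.0354) and 0.48 ± 0.14 (adjusted p = 0.0084) on the log2 scale. HFD stood at -0.31 ± 0.14 against ND for Lnpep (edgeR adjusted p = 0.206). Cd38, a membrane enzyme needed for oxytocin release from neurons, and Prep, a peptidase that can cleave oxytocin, passed the threshold in none of the 10 comparisons.

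Genes of the oxytocin pathway were counted from a list of 84 genes without Oxtr, of which 74 were tested. The list holds the peptide, cleavage and release genes and the vasopressin receptors above. It also holds the signalling genes beneath the receptor and transcription factors linked to the Oxtr gene. On HFD 5 were called higher and 2 lower than in ND, 9.46% of the list against 4.5% of all tested genes (2.83% higher and 1.68% lower). With semaglutide 4 were higher and 3 lower than on HFD, 9.46% against 4.15% of all genes (1.52% higher and 2.63% lower). With tirzepatide 9 were higher and 8 lower, 23% against 20.5% (9.79% higher and 10.7% lower). After the switch 10 were higher and 5 lower, 20.3% against 23.8% (12.8% higher and 10.9% lower). With tirzepatide and after the switch the shares were near the background, and the list moved in both directions in all 4 comparisons. Its median log2 change was -0.01, 0.11, 0.02 and -0.06 in that order, beside -0.04, 0.05, 0.03 and 0.03 over all tested genes. Leaving out 1 library took the count on HFD from 7 to 3 (ND 8, HFD 2 or HFD 6) or 4 (ND 2 or HFD 5), and the count with semaglutide from 7 to 4 (HFD 1 or HFD 2). Without the muscle-rich libraries 3 genes were called on HFD and 8 under tirzepatide. With no filter on low counts 3 were called on HFD and 4 under semaglutide.

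Gnaq and Gna11, the Gq-class alpha subunits through which the receptor mainly signals, were well expressed and passed the threshold in none of the 10 comparisons. Gnaq ran at means of 61.5 ± 12.1 CPM in ND and 66.7 ± 13.6 in HFD (SD, n = 8), a log2 difference of 0.12 ± 0.15 (SE). Gna11 ran at means of 249 ± 40.9 CPM in ND and 211 ± 16.3 in HFD, a log2 difference of -0.23 ± 0.14 (SE). The other Gq-class subunits, Gna14 and Gna15, had 119 and 228 counts in all libraries and were not tested. Gnao1, which encodes the alpha subunit of the Go protein, moved with Oxtr on HFD. Its medians were 9.29 CPM in ND, 24.2 in HFD, 15.6 under semaglutide, 13.0 under tirzepatide and 12.6 after the switch. The lowest HFD library, at 18.0 CPM, lay above the highest ND library, at 16.6. Gnao1 rose by 1.26 ± 0.25 (SE) on HFD (edgeR adjusted p = 0.000665), and changed by -0.96 ± 0.24 under tirzepatide (adjusted p = 0.00408) and -0.92 ± 0.24 after the switch (adjusted p = 0.00483), on the log2 scale.

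Of the 12 tested genes of phospholipase C, IP3 receptors and protein kinase C, 2 rose and 1 fell on HFD, 25% of them beside 4.5% of all tested genes. None was called with semaglutide, and 1 each, 8.33%, with tirzepatide and after the switch, beside 20.5% and 23.8% of all genes. Itpr1, an IP3-gated calcium channel, rose by 0.48 ± 0.13 on the log2 scale (edgeR adjusted p = 0.0232). Prkce rose by 0.55 ± 0.15 (adjusted p = 0.0169) and Prkca changed by -0.60 ± 0.18 (adjusted p = 0.0404), so 2 protein kinase C genes moved in opposite directions. Plcb3, a phospholipase C beta, was higher than on HFD with tirzepatide, by 0.77 ± 0.20 (edgeR adjusted p = 0.00491), and after the switch, by 0.78 ± 0.20 (adjusted p = 0.00414). Among 13 receptor kinases, arrestins and RGS proteins, which shut receptor signalling off, none was called on HFD and 1 each, 7.69%, in semaglutide, tirzepatide and the switch against HFD, beside 4.15%, 20.5% and 23.8% of all genes. Grk5, a receptor kinase, changed against HFD by -0.69 ± 0.16 under semaglutide (edgeR adjusted p = 0.00595) and -0.60 ± 0.16 under tirzepatide (adjusted p = 0.00575). Rgs4, which speeds Gq switch-off, rose by 1.48 ± 0.37 after the switch (adjusted p = 0.00369).

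Of 17 tested genes of calmodulin, calcineurin, NFAT and contraction, none was called on HFD. Against HFD 2 were higher and 1 lower with semaglutide (17.6%, beside 4.15% of all genes), 2 higher and 1 lower with tirzepatide (17.6%, beside 20.5%), and 3 higher and 1 lower after the switch (23.5%, beside 23.8%). The higher ones were the calcineurin subunit Ppp3cb and the NFAT factor Nfatc3 with semaglutide (log2 0.52 and 0.47), the calmodulin-dependent kinase Camk2d and Nfatc4 with tirzepatide (0.49 and 0.74), and Camk2d, Ppp3ca and Ppp3cb after the switch (0.83, 0.42 and 0.40). The lower one was each time Mylk. Mylk, myosin light chain kinase, which couples calcium to contraction, ran at a median of 188 CPM in HFD and at 95.1 under semaglutide, 107 under tirzepatide and 76.3 after the switch. It was lower in all 3 than on HFD, at -0.93 ± 0.19 (SE, edgeR adjusted p = 0.00196), -0.88 ± 0.19 (adjusted p = 0.000932) and -1.02 ± 0.19 (adjusted p = 0.000147) on the log2 scale. The mean level of mural and smooth muscle markers, which share this contractile program, was 5.73 ± 0.41 log2 CPM in HFD (SD, n = 8) and 5.23 ± 0.36, 5.24 ± 0.22 and 5.38 ± 0.23 in these groups. Their part in the change of Mylk was not tested. In the mitogen-activated kinase branch, with 13 tested genes, Map2k5 was the 1 gene called on HFD (7.69%, beside 4.5% of all genes), at -0.58 ± 0.16 (edgeR adjusted p = 0.0227). Against HFD none of this branch was called with semaglutide, and 2 were higher and 2 lower with tirzepatide (30.8%, beside 20.5%). After the switch 1 was higher and 1 lower (15.4%, beside 23.8%).

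Of 8 tested transcription factors linked to the Oxtr gene, 1 was called higher on HFD (12.5%, beside 4.5% of all tested genes). Against HFD 1 was higher with semaglutide (12.5%, beside 4.15%), and 3 were higher and 2 lower with tirzepatide (62.5%, beside 20.5%). After the switch 3 were higher (37.5%, beside 23.8%). The list included Esr1, the estrogen receptor alpha, whose changes went the other way from those of Oxtr. Esr1 ran at medians of 30.7 CPM in ND, 21.5 in HFD, 39.0 under semaglutide, 35.6 under tirzepatide and 44.6 after the switch. It rose over HFD by 0.85 ± 0.25 under semaglutide (SE, edgeR adjusted p = 0.0351), 0.99 ± 0.25 under tirzepatide (adjusted p = 0.0033) and 1.40 ± 0.25 after the switch (adjusted p = 6.62e-05) on the log2 scale. Its difference of HFD against ND was -0.59 (edgeR adjusted p = 0.192). Maff, a small Maf factor described as binding the Oxtr promoter, rose by 1.45 ± 0.44 on HFD (edgeR adjusted p = 0.0446) and changed by -1.40 ± 0.44 under tirzepatide (adjusted p = 0.0183). Cebpb, a C/EBP factor, changed by -0.80 ± 0.22 under tirzepatide (adjusted p = 0.00731). Nr3c1, the glucocorticoid receptor, rose by 0.55 ± 0.14 in both tirzepatide (adjusted p = 0.00376) and the switch (adjusted p = 0.00387). Esr2 and Pgr, the other estrogen receptor and the progesterone receptor, had too few counts to be tested.

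In the other 6 comparisons the whole pathway list of 74 tested genes gave these counts. With semaglutide against ND 6 genes were called (8.11%, beside 2.64% of all tested genes) and 6 under tirzepatide against ND (8.11%, beside 10.1%). After the switch 12 were called against ND (16.2%, beside 14.8%). Against semaglutide 10 were called with tirzepatide (13.5%, beside 10%) and 9 after the switch (12.2%, beside 13.3%). Between the switch and tirzepatide edgeR called 0 of 74, beside 0.399% of all genes, and DESeq2 called 1. That background rests on single libraries: it is 63 genes, and 359 without tirzepatide library 8, 139 without diet-switch library 2, 135 without tirzepatide library 5 and 37 without tirzepatide library 3. Against ND the 6 genes called with semaglutide became 1 without ND library 1, 2, 4 or 8, 2 without ND 3 or semaglutide 7, and 3 without HFD 5 or 8 or semaglutide 3, 4, 5 or 8. The 12 after the switch became 6 without ND 2 and 7 without ND 4 or diet switch 3. Against semaglutide the 10 with tirzepatide became 6 without tirzepatide 3, and the 9 after the switch became 3 without diet switch 4, 4 without diet switch 7 and 5 without semaglutide 1. Without the muscle-rich libraries 1 gene was called between tirzepatide and semaglutide.

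**Figure D3:**
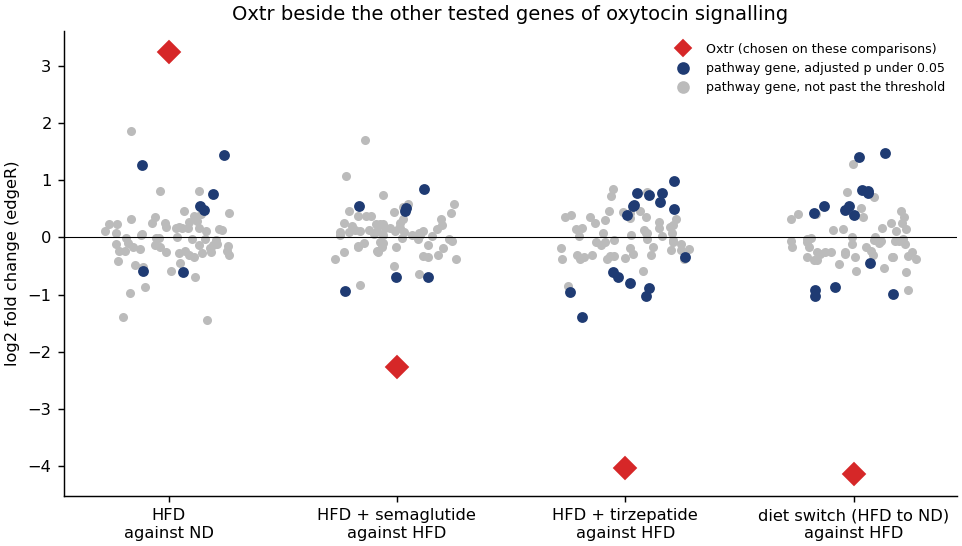
Fitted log2 fold change of the 74 tested genes of the oxytocin pathway in HFD against ND and in each treatment against HFD. Circles are genes, dark where the edgeR adjusted p was under 0.05, and diamonds mark Oxtr, which was chosen on these comparisons. Oxtr lies at 3.24, -2.27, -4.03 and -4.15, outside the range of the other genes, and the dark circles fall on both sides of 0.

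Other receptors that couple to Gq were read beside it, 16 of 34 being tested. On HFD 2 were higher and 1 lower (18.8%, beside 4.5% of all tested genes), and with semaglutide 1 was lower (6.25%, beside 4.15%). With tirzepatide 1 was higher and 4 lower (31.2%, beside 20.5%), and after the switch 2 were higher and 1 lower (18.8%, beside 23.8%). P2ry2, a receptor for extracellular nucleotides, is named for its direction and not for its p. It was called in the direction of Oxtr in all 4 comparisons. It rose by 1.18 on HFD (edgeR adjusted p = 0.0239) and changed by -1.22, -1.18 and -0.91 against HFD with semaglutide, tirzepatide and the switch (adjusted p = 0.0207, 0.00835 and 0.0361) on the log2 scale. Chrm3, a muscarinic acetylcholine receptor, went the other way, with -1.88 on HFD (adjusted p = 0.0299), 2.54 under tirzepatide (adjusted p = 0.00049) and 2.30 after the switch (adjusted p = 0.00139). Among these 4 comparisons F2r and P2ry1 were called only under tirzepatide, at -1.43 and -1.51 (edgeR adjusted p = 0.00135 and 0.00248). Ffar2 was called only on HFD, at 0.81 (edgeR adjusted p = 0.00536).

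Around Oxtr on chromosome 6, Lmcd1, Gm44193, Rad18 and Srgap3 were the tested genes within 250 kb, and none passed the threshold in any of the 10 comparisons. Their differences of HFD against ND were 0.42 ± 0.40 for Lmcd1, 0.73 ± 0.46 for Gm44193, 0.21 ± 0.25 for Rad18 and -0.42 ± 0.42 (SE) for Srgap3 on the log2 scale. Lmcd1 (-0.33, -0.46 and -0.44) and Gm44193 (-0.62, -0.30 and -0.28) also had the sign of Oxtr in semaglutide, tirzepatide and the switch against HFD, with SE of 0.39 to 0.46, so a smaller change in these genes is not shown to be absent. The other genes of the window had too few counts or were not in the table. The nearest gene is Cav3, muscle caveolin, on the opposite strand, which ends 810 bp from the end of Oxtr. Whether counting used strand is not given in the sources used here. Cav3 held 55 counts in all, 24 in ND, 3 in HFD, 0 under semaglutide, 18 under tirzepatide and 10 after the switch. How many of its reads were counted under Oxtr was not tested.

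Leptin (Lep), the hormone that adipocytes release as their fat stores grow, was among the genes closest to Oxtr. Likeness was the Pearson r of log2 CPM with Oxtr over the 40 libraries, among 15332 genes. These libraries fall into groups that differ in both genes, so r is given as a description. The 8 highest were Lbp (0.917), Lep (0.915), Fads3 (0.890), Tph2 (0.889), Duoxa1 (0.884), Prelp (0.879), Slc48a1 (0.876) and 1700047G03Rik (0.872). Lbp encodes lipopolysaccharide-binding protein, Fads3 a member of the fatty acid desaturase family, Tph2 the neuronal tryptophan hydroxylase of serotonin synthesis, Duoxa1 a maturation factor of a dual oxidase, Prelp a matrix proteoglycan and Slc48a1 a heme transporter. The 5 lowest were Gm44386 (-0.838), Adrb3 (-0.833), Sfxn1 (-0.826), Cfd (-0.824) and Cyp2f2 (-0.792). Adrb3 is the beta-3 adrenergic receptor that starts lipolysis in mouse fat, Cfd is the adipokine adipsin, Sfxn1 is a mitochondrial serine transporter and Cyp2f2 is a cytochrome P450.

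Lbp ran from 24.0 to 102 CPM in ND (median 77.2) and from 119 to 222 in HFD (median 170), without overlap. Its medians were 62.1 CPM with semaglutide, 37.3 under tirzepatide and 55.7 after the switch. Tph2 was at 9.54 to 34.6 CPM in HFD, against at most 4.10 in ND, 12.4 under semaglutide, 1.61 under tirzepatide and 3.23 after the switch, with no count at all in 1, 3 and 3 libraries of ND, semaglutide and tirzepatide. Going the other way, Adrb3 had a median of 203 CPM in ND, 40.2 in HFD, 71.4 under semaglutide, 160 under tirzepatide and 243 after the switch. Cfd had medians of 4810 CPM in ND, 643 in HFD, 3209 under semaglutide, 6767 under tirzepatide and 3903 after the switch.

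**Figure D4:**
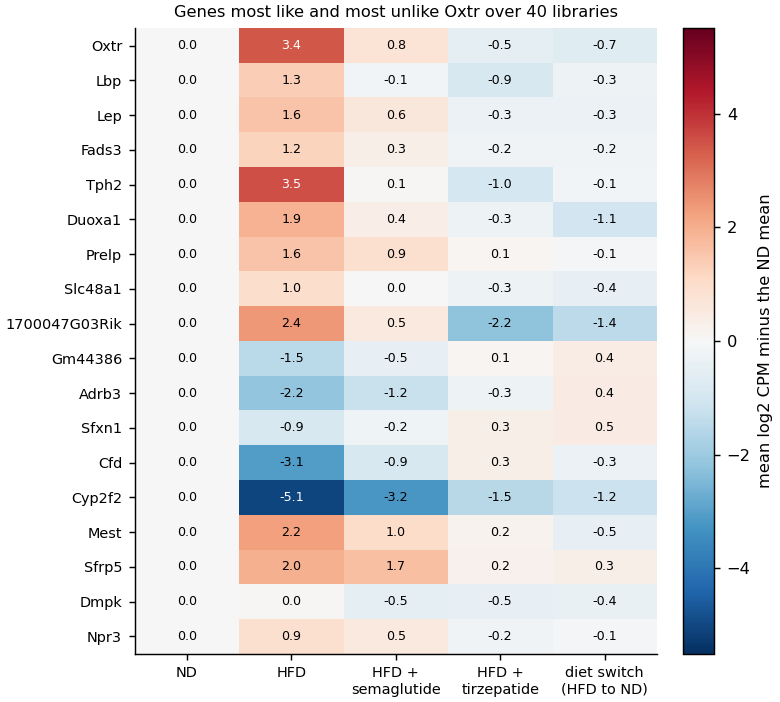
Mean log2 CPM of each group minus the ND mean, for Oxtr, the 8 genes with the highest and the 5 with the lowest Pearson r with it over 40 libraries, and the further genes with the highest r within groups. Red is above and blue below ND. Oxtr and Tph2 have the deepest red on HFD, at 3.40 and 3.53, and Cyp2f2 the deepest blue, at -5.06.

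Within the groups, which the choice of Oxtr did not use, Oxtr rose and fell with the genes of fat expansion. The 7 genes of that list are Lep, Mest, Sfrp5, Npr3, Peg3, Bmp3 and Trp53inp2, taken up because earlier results of these data pointed to them. The p-values for these genes, here and in the single groups below, are therefore not independent of how the genes were chosen. After group means were removed from the 40 libraries, Oxtr and the list's mean level had r = 0.807 and Spearman's rho = 0.747 (permutation test, adjusted p = 5.33e-05 for both, over 16 relations). For Lep alone r was 0.808 and rho 0.733, and for Mest, an imprinted gene that marks growing adipocytes, r was 0.794 and rho 0.769 (permutation adjusted p = 5.33e-05 for each). The unadjusted p of 1e-05 is the smallest these permutations can give. Without the 2 libraries farthest from the median r was 0.715, 0.748 and 0.692, and without the 4 B cell-rich libraries, an alternative chosen after the data were seen, 0.686, 0.666 and 0.680, in the same order. The highest within-group r over all ranked genes belonged to Lbp (0.875), Lep (0.808), Mest (0.794), Sfrp5 (0.762), Prelp (0.745), Dmpk (0.744), Duoxa1 (0.742) and Npr3 (0.738). Ubd, another gene with a large rise on HFD, had r = 0.704 over 40 libraries and 0.109 within groups.

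The semaglutide libraries showed the relation most closely. From library 1 to 8, Lep stood at 386.9, 781.1, 2396, 861.5, 1895, 896.7, 989.6 and 592.6 CPM, and Oxtr at 4.49, 13.4, 74.4, 19.3, 70.3, 21.1, 22.3 and 10.6 CPM. Both genes put the 8 libraries in the same order (rho = 1, r = 0.992 of log2 CPM, exact permutation adjusted p for r = 0.000372 over 15 relations). Without the 2 libraries farthest from the median, 3 and 1, r was 0.991. In ND r was 0.868 (exact permutation adjusted p = 0.00651) and 0.716 without libraries 5 and 2. In HFD, where Lep spanned only 1629 to 1999 CPM, r was 0.679 (exact permutation adjusted p = 0.0864) and -0.00178 without libraries 4 and 8, so it rests on those. With tirzepatide r was 0.337 (exact permutation adjusted p = 0.417) and rho 0.262. After the switch r was 0.768 (exact permutation adjusted p = 0.052), 0.559 without libraries 2 and 3, and rho was 0.905 (exact permutation adjusted p = 0.0171). In ND and HFD rho was 0.857 and 0.619 (exact permutation adjusted p = 0.0201 and 0.133). Whether these group values of r differ from each other was not tested. Between groups Lep fell by 1.84 under tirzepatide and 1.81 after the switch on the log2 scale, with SE 0.30 for each (edgeR adjusted p = 2.29e-05 and 2.81e-05). With semaglutide Lep stood at -0.74 ± 0.29 against HFD (edgeR adjusted p = 0.139).

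**Figure D5:**
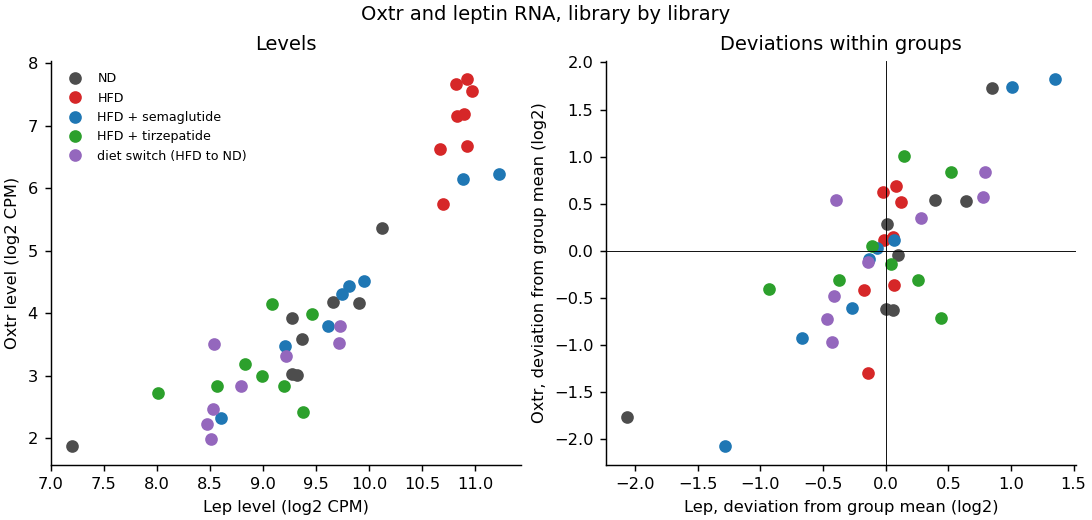
Oxtr against Lep for each of the 40 libraries, on the left as log2 CPM and on the right as deviations from the group mean, coloured by group. Points run from low in both genes to high in both, the semaglutide libraries reach from 386.9 to 2396 CPM of Lep, and within groups r was 0.808.

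The 7 fat expansion genes were taken up because earlier results of these data pointed to them, so their counts here are a description. On HFD 5 of the 7 were called higher than in ND, beside 2.83% of all tested genes. With tirzepatide and after the switch 5 of 7 were called lower than on HFD, beside 10.7% and 10.9%, and with semaglutide 1 of 7, beside 2.63%. Sfrp5, a secreted inhibitor of Wnt signalling, stayed at a median of 391 CPM with semaglutide beside 362 in HFD and 104 in ND, a log2 difference of -0.06 ± 0.38 from HFD (SE, edgeR adjusted p = 0.956). Oxtr stood at -2.27 in that comparison.

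The same within-group test was run for cell type markers and library size. Adipocyte markers had r = 0.294 with Oxtr (permutation adjusted p = 0.237), and -0.0724 without ND library 5 and semaglutide library 1, which hold the most B cell RNA. Mural and smooth muscle markers had r = 0.56 and rho = 0.485 (permutation adjusted p = 0.00272 and 0.0108), and endothelial markers r = 0.542 and rho = 0.487 (permutation adjusted p = 0.00486 and 0.0108). The endothelial relation fell to 0.342 without those same libraries (permutation adjusted p = 0.144), and the mural and endothelial relations to 0.322 and 0.268 without the 4 B cell-rich ones (permutation adjusted p = 0.187 and 0.287). Without HFD 1 and ND 5, the libraries farthest from its median, the mural relation stayed at 0.536 (permutation adjusted p = 0.0098). Both relations thus rest in part on the B cell-rich libraries. Between groups the mural markers averaged 5.53 log2 CPM in ND and 5.73 in HFD, and the endothelial markers 5.57 and 5.94, beside 3.64 and 7.04 for Oxtr. Lipid-associated macrophage markers averaged 4.48 ± 0.46 in ND and 5.46 ± 0.19 in HFD (SD, n = 8), and skeletal muscle markers 4.01 ± 2.37 and 1.88 ± 1.38. B cell and T cell markers had r = -0.386 and -0.395 (permutation adjusted p = 0.192 and 0.179), and 0.00113 and 0.0422 without ND 5 and semaglutide 1. The markers of macrophages (0.011), lipid-associated macrophages (0.127), adipocyte progenitors (-0.0422), skeletal muscle (-0.101), mammary epithelium (0.137), mesothelium (-0.0947) and Schwann cells (-0.0749), and the library total (-0.00262), passed no threshold. The part of any of these cells in the level of Oxtr was not tested.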

How the data were processed

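RNA of subcutaneous fat was extracted with Nucleozol and made into LexoGen QuantSeq libraries, which read transcript 3′ ends, sequenced on an Illumina HiSeq, per the labels' protocols. The authors deposited counts per gene symbol, and the build was mm10 per the submitters' processing notes. Which aligner, counter, annotation and strand setting were used is not given in the sources used here. A deposited normalized table was not used. From the counts, edgeR 4.0.16 (R 4.3.3) kept 15807 genes with filterByExpr (99.39% of counts), scaled them with TMM and fitted 40 libraries with 1 mean per group by robust quasi-likelihood. A gene was called where its p, adjusted by Benjamini-Hochberg over all tested genes, was under 0.05. SE is the log2 change over the root of F. Log2 CPM used a prior count of 2. Correlations used 100000 permutations within groups, or exact ones within 1 group. Oxtr had at least 11 counts in every library, so counting error is largest in the low groups. No pair of libraries within a group were copies (smallest chi-square per degree of freedom 3.99). On simulated data for HFD against ND, edgeR called 25.4% of genes changed 1.5-fold, 46.3% of those changed 2-fold and 95.5% of those changed 4-fold. It also called 6 unchanged genes. A gene that passed no threshold may thus still have changed by 2-fold or less. Oxtr, the gene lists and the tests were chosen with earlier results of these data known. Named genes were the family's peptides and receptors, Gq-class subunits and neighbours within 250 kb. Also named were the genes most like Oxtr among those averaging 1 log2 CPM or more, and up to 4 called genes per list by smallest p. Exceptions were P2ry2, named for its direction, and the calmodulin list, whose genes called against HFD were all named. Alternatives used DESeq2 1.42.0, limma 3.58.1 and other filters and library sets.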

Additional observations from a re-analysis of the deposited data

Results flagged for a closer look

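In 75 sets of 8 values of 1 group, 11 held a library far from the other 7 by Dixon's criterion (gap over range above 0.526), where chance alone marks about 1 in 20. For Oxtr itself this was ND library 2 at 40.8 CPM, the next highest ND library being at 17.6. On the log2 CPM scale that library was not marked (gap over range 0.34). ND library 5 stood apart with low adipocyte (9.59), mural (4.77) and fat expansion (4.79) markers and high B cell (6.66) and T cell (5.3) markers, all in mean log2 CPM. It was also the lowest ND library for Oxtr, at 3.15 CPM. Mural markers were low in tirzepatide library 8 (4.74), T cell markers high in diet-switch library 4 (0.93) and skeletal muscle markers high in HFD library 4 (5.17). Mammary markers were high in HFD library 7 (-0.045) and tirzepatide library 4 (0.918).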

How the results depend on the processing

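The fitted direction of Oxtr held in 9 of the 10 comparisons under all alternatives run; between the diet switch and tirzepatide, where nothing was called, it ranged from -0.27 to 0.39. Both calls against semaglutide were lost without the muscle-rich libraries (tirzepatide -2.22, diet switch -1.83), in the permutation test (-1.26 and -1.45) and in that test with a prior count of 0.5 (-1.30 and -1.49). The cause was not tested, and the first also had fewer samples. Leaving out 1 library at a time gave 3.09 to 3.66 for HFD against ND, and against HFD -2.62 to -2.11 (semaglutide), -4.20 to -3.92 (tirzepatide) and -4.30 to -4.04 (switch). Against ND it gave 0.62 to 1.39, -0.96 to -0.37 and -1.06 to -0.50 in the same order, against semaglutide -1.93 to -1.41 (tirzepatide) and -2.05 to -1.53 (switch), and -0.27 to 0.05 for the switch against tirzepatide. The replicate numbers showed no clear pairing of the libraries. Same-number deviations correlated at 0.03 on average (lowest -0.36, highest 0.27), beside 0 for other numbers. These averages over many genes cannot exclude a shared batch. With the replicate block Oxtr kept its calls, at -1.61 (tirzepatide) and -1.78 (switch) against semaglutide, and the called genes between switch and tirzepatide went from 63 to 99.

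Counts of called genes of the oxytocin pathway list moved by more than 1.5 times as follows. HFD against ND, 7 genes, gave 3 with no filter, 12 with limma-voom and 3 without the muscle-rich libraries (3 to 8 leaving out 1 library). Semaglutide against HFD, 7, gave 4 with no filter (4 to 9). Tirzepatide against HFD, 17, gave 8 without the muscle-rich libraries (14 to 22), and the switch against HFD, 15, ran from 12 to 22. Semaglutide against ND, 6, gave 1 with no filter, 11 with limma-voom and 2 without muscle-rich libraries (1 to 9). Tirzepatide against ND, 6, gave 13 with limma-voom and 10 without B cell-rich libraries (4 to 8). The switch against ND, 12, gave 7 with only the groups compared (6 to 17). Tirzepatide against semaglutide, 10, gave 6 with no filter and 1 without muscle-rich libraries (6 to 11). The switch against semaglutide, 9, gave 3 with only the groups compared, 5 without muscle-rich and 3 without B cell-rich libraries (3 to 12). The switch against tirzepatide, 0, gave 1 with DESeq2 (0 to 2).

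Over all genes, limma-voom called 1289 in place of 712 for HFD against ND, 1263 in place of 656 for semaglutide against HFD, 952 in place of 417 for semaglutide against ND, 2451 in place of 1591 for tirzepatide against ND and 120 in place of 63 between switch and tirzepatide. Without muscle-rich libraries tirzepatide had 1662 in place of 3246 against HFD, 569 against ND and 420 in place of 1584 against semaglutide, and the switch 8 against tirzepatide. Without B cell-rich libraries semaglutide had 415 against HFD, tirzepatide 981 and the switch 1252 in place of 2101 against semaglutide, and the switch 127 against tirzepatide. With only the groups compared the counts were 999 for semaglutide against HFD, 1420 in place of 2338 for the switch against ND, 1219 against semaglutide and 2 against tirzepatide. No filter gave 267 for semaglutide against ND, and DESeq2 231 for the switch against tirzepatide. Leaving out 1 library moved these totals by over 1.5 times for semaglutide against HFD (437 without HFD 5) and against ND (265 without ND 1, 258 without ND 4, 860 without ND 5), tirzepatide against ND (1048 without ND 4, 1054 without tirzepatide 4), the switch against ND (1555 without ND 4, 1323 and 1483 without diet switch 3 and 4) and against semaglutide (1363 and 1364 without diet switch 3 and 7), and the switch against tirzepatide (37, 135 and 359 without tirzepatide 3, 5 and 8, 139 without diet switch 2). Within groups, the endothelial relation with Oxtr fell to 0.342 without 2 libraries and to 0.268 without the B cell-rich ones, the mural relation to 0.322, and the Schwann cell relation went to -0.403 (permutation adjusted p = 0.05).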
